A study of Mus musculus with 2 samples.

Results

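The 10 genes that encode growth and repair factors of tumor leukocytes, *Vegfa*, *Tgfb1*, *Pdgfb*, *Igf1*, *Hbegf*, *Areg*, *Ereg*, *Osm*, *Il6* and *Il10*, were followed across cell types and across monocyte and macrophage states of mouse melanomas. They were taken by symbol, 10 of the 31053 genes listed, and all 10 had at least 1 transcript in each library. In the filtered monocyte/macrophage-like cells 9 of them reached the minimum of 20 unique molecular identifiers (UMIs, distinct transcript molecules) over both libraries, and *Ereg* did not.

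Cells carrying CD45, the surface protein of leukocytes, were sorted from *Braf*-mutant melanomas 4 days after injection into C57BL/6 hosts aged 8 weeks, and single-cell transcriptomes were read from the 3′ ends of transcripts. Tumors of both groups were made with cells without *Ptgs*, that is, without the cyclooxygenases of prostaglandin synthesis, by title and design text, although the genotype label of both samples reads wild type. Control hosts were untreated, and hosts of the other group, termed NK cell-depleted, were rid of natural killer (NK) cells by 200 µg of anti-NK1.1 (PK136) together with 30 µg of anti-asialo GM1, given on day 0 and again on day 2. Each group was 1 library of pooled tumors, into which parental melanoma cells had been spiked. Differences below therefore compare these 2 libraries and carry no test and no p-value. Their 95% intervals are for counting error alone, so that variation from tumor to tumor or from cell to cell is not covered. The intervals treat UMIs as independent, so they are too narrow where a few cells held many UMIs of a gene.

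After filtering, the control library held 5292 cells and 24810009 UMIs and the NK cell-depleted library 4506 cells and 23245982 UMIs, with medians of 4170 and 4893 UMIs per cell. Both libraries shared 5 cell barcodes. Marker genes gave clusters their cell type names ("-like"), with the 10 factors themselves left out of the clustering. Monocyte/macrophage-like cells numbered 3470 and 3171 in 13 states, NK-like cells 542 and 1, neutrophil-like cells 368 and 467, conventional dendritic cell (DC)-like cells 355 and 378, T-like cells 289 and 223, eosinophil-like cells 13 and 70, and melanoma-like cells 54 and 69. *Ptprc*, which encodes CD45, had a UMI in 90.8% and 92.7% of monocyte/macrophage-like cells against 7.41% and 7.25% of melanoma-like cells. Levels are UMIs scaled to 1000000 UMIs of the cells named (CPM), written for the control library first. They are not scaled for length and were not compared between genes.

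VEGF-A and PDGF-B act on blood vessels, the former on endothelial cells and the latter on the pericytes around them, while TGF-β1 and IGF-1 govern matrix repair, immune restraint and cell growth. HB-EGF, amphiregulin (*Areg*) and epiregulin (*Ereg*) are ligands of the EGF receptor family that are released from the cell surface by proteases. Oncostatin M (*Osm*) and IL-6 signal through receptors that share gp130 and activate STAT3, and IL-10, which also acts through STAT3, restrains inflammatory cytokine output of macrophages.

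The factors were divided among cell types in distinct ways. Monocyte/macrophage-like cells held 98.9% and 99.9% of all *Igf1* UMIs of the 2 libraries and 97.6% and 98.7% of all *Il10* UMIs. Their share was 86.9% and 90.0% for *Vegfa* but only 55.8% and 64.8% for *Areg*, of which T-like cells held 34.2% and 24.1%. *Osm* and *Hbegf* had their second largest pool in neutrophil-like cells of the control library, with 15.7% and 14.9% of UMIs. *Ereg* was scarce, with 17 and 43 UMIs in all, of which melanoma-like cells held 52.9% and 79.1%. Thus 9 factors had most of their UMIs in monocyte/macrophage-like cells of both libraries, and *Ereg* had most in melanoma-like cells. Monocyte/macrophage-like cells held 77.4% and 80.4% of all UMIs, however, so a majority there does not set a factor apart. *Igf1*, *Il10* and *Vegfa* lay above these shares in both libraries. So did *Tgfb1* (83.2% and 88.1%), *Il6* (84.3% and 90.1%) and *Pdgfb* (80.0% and 89.1%). *Osm* (78.4% and 78.8%) lay close to them, *Hbegf* (73.3% and 81.4%) lay below in the control library, and *Areg* lay below in both.

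**Figure D1:**
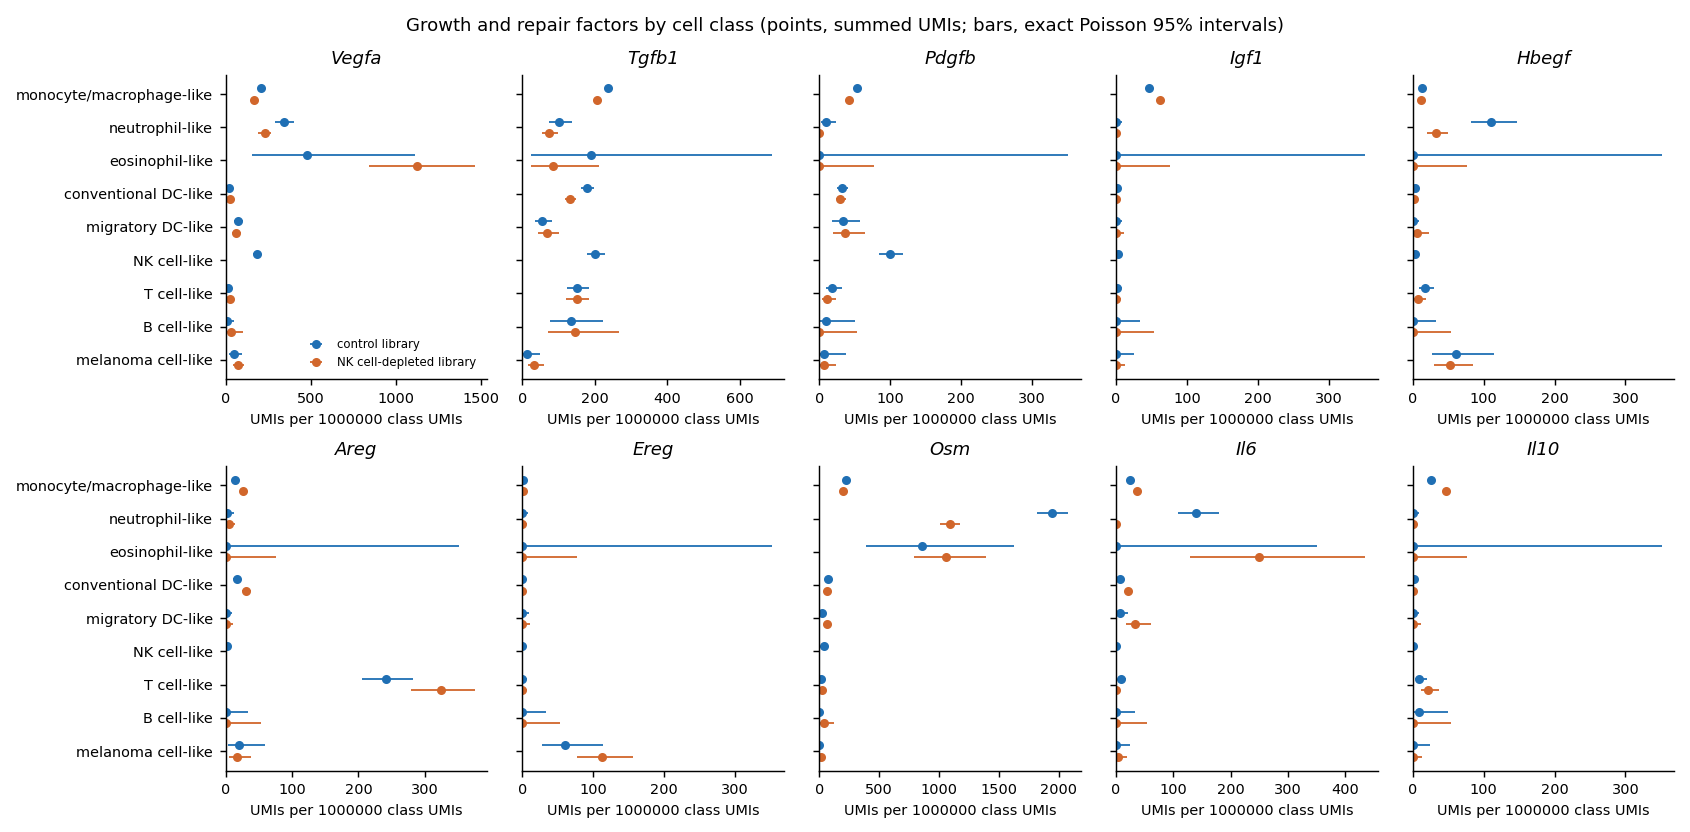
Level of each of the 10 genes (UMIs per 1000000 UMIs of the class, linear axes that differ between panels) in 9 cell classes of the control and NK cell-depleted libraries. Points are summed UMIs of 1 library, bars exact Poisson 95% intervals, and classes under 10 cells in a library are not drawn. *Osm* stands highest in neutrophil-like cells (1944 and 1091 CPM), *Areg* in T-like cells (242 and 325 CPM), and *Igf1* and *Il10* in monocyte/macrophage-like cells. In the NK cell-depleted library *Osm* of eosinophil-like cells (1058 CPM) is within counting error of that of neutrophil-like cells.

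The comparison between libraries asked how these factors differed in tumor leukocytes when NK cells were missing. In monocyte/macrophage-like cells 0 of the 9 factors with enough UMIs were at least 1.5-fold higher in the control library and 2, *Areg* and *Il10*, were at least 1.5-fold higher in the NK cell-depleted library. Of all 11818 genes with enough UMIs, 8.24% were higher in the control library by this fold and 3.75% in the NK cell-depleted library. The median log2 ratio of the 9 factors, control over NK cell-depleted, was 0.10, and that of all genes was -0.01. With every state given the same weight in both libraries, 0 and 1 of the 9 (*Areg*) passed the fold, against 5.49% and 3.49% of all genes. The median of the 9 factors then turned to -0.25, beside -0.04 for all genes.

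The mix of states differed between the libraries, so each factor was read both ways. The state led by *Gpnmb*, *Mmp13* and *Spp1* took 16.6% of the class's UMIs in the control library and 9.84% in the NK cell-depleted library, and that led by *Pf4*, *Itga9* and *Arg1* took 19.9% and 12.1%. The state led by *Htra3*, *Spint1* and *Cx3cr1* took 14.1% and 3.97%. In the other direction, the state led by *Ccl8*, *Lyve1* and *Cbr2* took 15.1% and 26.7%, and the *Ly6c2* and *Vcan* monocyte state 7.13% and 16.6%.

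**Figure D2:**
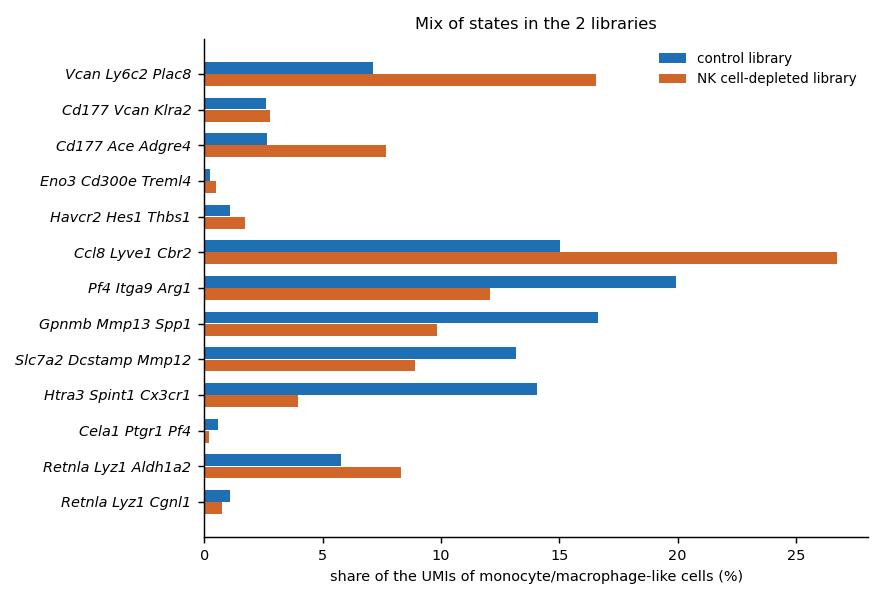
Share of all UMIs of monocyte/macrophage-like cells (%) held by each of 13 states, named by leading genes, in the control and NK cell-depleted libraries (bars from 0, 1 library each). The *Htra3*, *Gpnmb* and *Pf4* states are larger in the control library and the *Ccl8* and *Ly6c2* states in the NK cell-depleted library.

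*Vegfa* (chr17:46016993-46032369, minus strand, GRCm38) was higher in monocyte/macrophage-like cells of the control library, and lower there once the mix of states was held equal. It had 3927 UMIs (205 CPM) and 3112 UMIs (166 CPM), a ratio of 1.23 (1.17 to 1.29), with a UMI in 37.3% and 28.9% of cells. With cells thinned to 2000 UMIs each, which left out 328 and 240 shallower cells, the shares were 24.6% and 20.1%. With equal weights the log2 ratio went from 0.30 to -0.25 (-0.32 to -0.18), so the direction of *Vegfa* turned with the mix, which alone came to 0.55 on the log2 scale.

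Within the macrophage states *Vegfa* fell into a high and a low group. The *Gpnmb* *Mmp13* state was highest, at 453 CPM over both libraries, followed by the states led by *Slc7a2* and *Dcstamp* (383 CPM), *Havcr2* and *Hes1* (367 CPM) and *Pf4* and *Itga9* (357 CPM), and neighbours in the order among these last 3 did not differ beyond counting error. These 4 of 13 states held 50.8% and 32.5% of the class's UMIs and 90.8% and 86.2% of its *Vegfa* UMIs. The *Ccl8* *Lyve1* state was lowest, at 13.4 CPM. This order covers macrophage states only, and levels outside them reached higher. Eosinophil-like cells had 476 and 1120 CPM of *Vegfa*, on 5 and 54 UMIs from 13 and 70 cells. An unnamed cluster of 47 and 27 cells had 942 and 1007 CPM, on 55 and 33 UMIs.

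Library by library, the high states mostly had more *Vegfa* in the NK cell-depleted tumors. The *Gpnmb* *Mmp13* state had 413 and 521 CPM, 1.26-fold higher in the NK cell-depleted library (1.16 to 1.37), the *Pf4* *Itga9* state 331 and 403 CPM, and the *Slc7a2* *Dcstamp* state 358 and 421 CPM. In the *Havcr2* *Hes1* state the order was the opposite, at 389 and 353 CPM, within counting error. Among the 9 states with at least 100 cells in each library, *Vegfa* was higher in the NK cell-depleted library in 6, 4 of them beyond counting error, and higher in the control library in 3, all within it. Levels of HIF target genes, which respond to low oxygen, stood beside this. The summed level of 15 such genes in the *Gpnmb* *Mmp13* state was 9760 and 12287 CPM, against 1294 and 1143 CPM in the *Ccl8* *Lyve1* state. High sums were not limited to states with much *Vegfa*. The *Retnla* *Lyz1* *Cgnl1* state had 9827 and 11255 CPM at 104 CPM of *Vegfa* over both libraries. The *Cela1* *Ptgr1* state had 7225 and 10265 CPM at 47.4 CPM of *Vegfa*, while the *Pf4* *Itga9* state had 6277 and 6803 CPM. The median log2 ratio of the HIF target genes over the class moved from 0.39 to -0.15 with equal weights. The part of hypoxia in the *Vegfa* difference was not tested.

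*Pdgfb* (chr15:79995874-80014977, minus strand) turned in the same way. It had 1024 and 785 UMIs in monocyte/macrophage-like cells, 53.4 and 42.0 CPM, a ratio of 1.27 (1.16 to 1.40), and a log2 ratio of 0.35 that became -0.25 (-0.39 to -0.11) with equal weights. Its higher states were those led by *Slc7a2* and *Dcstamp* (100 CPM over both libraries) and *Htra3* and *Spint1* (96.5 CPM), which did not differ beyond counting error, so its order was not that of *Vegfa*. A smaller state led by *Eno3* and *Cd300e* stood at 112 CPM on only 16 UMIs. Both larger states had more *Pdgfb* in the NK cell-depleted library, with 96.2 and 107 CPM in the first, within counting error, and 90.0 and 120 CPM in the second, 1.33-fold (1.03 to 1.71). In the *Pf4* *Itga9* state the values were 60.6 and 87.7 CPM, 1.45-fold (1.19 to 1.76). Of the 9 larger states 4 had more *Pdgfb* in the NK cell-depleted library, 2 of them beyond counting error, and 5 had more in the control library, all within it.

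**Figure D3:**
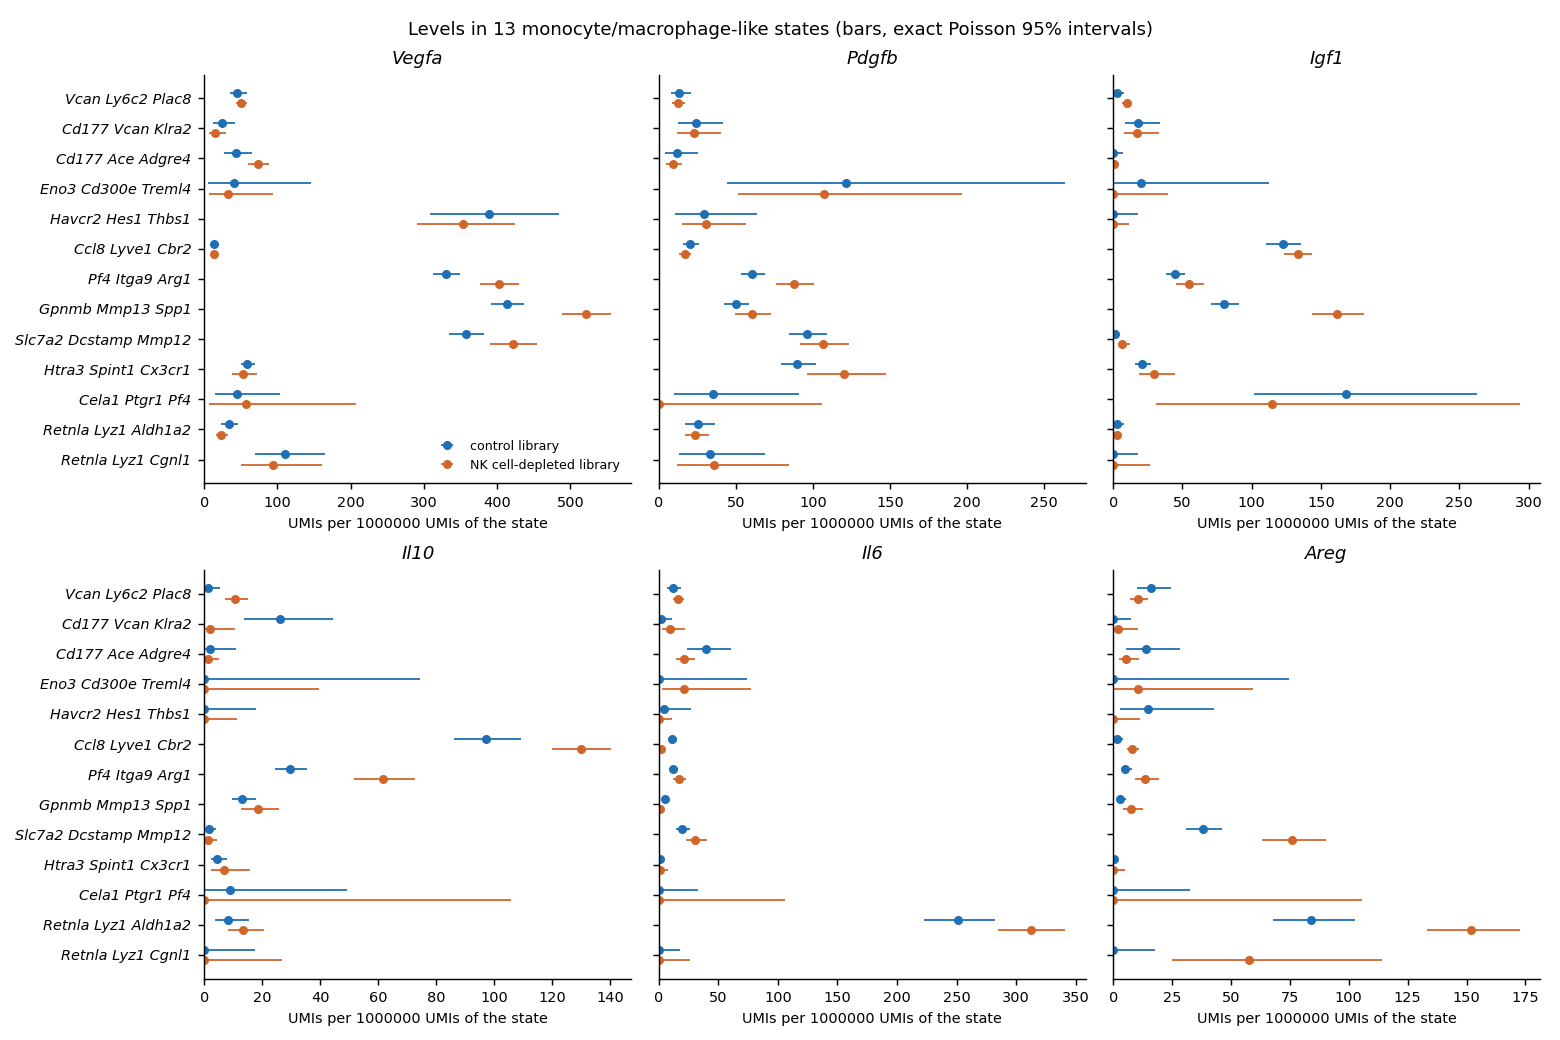
Levels of *Vegfa*, *Pdgfb*, *Igf1*, *Il10*, *Il6* and *Areg* (UMIs per 1000000 UMIs of the state, linear axes that differ between panels) in 13 monocyte/macrophage-like states, named by leading genes, of both libraries. Points are summed UMIs of 1 library and bars exact Poisson 95% intervals. *Vegfa* is high in 4 states, *Il10* is highest in the *Ccl8* *Lyve1* state (97.3 and 130 CPM), and *Il6* and *Areg* are highest in the *Retnla* *Lyz1* *Aldh1a2* state (251 and 312 CPM for *Il6*).

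NK-like cells of the control library also carried both vessel factors. In 542 cells there were 244 *Vegfa* UMIs (182 CPM) and 134 *Pdgfb* UMIs (99.9 CPM), 5.40% and 10.5% of the library's UMIs of these genes. *Vegfa* had a UMI in 25.3% of NK-like cells and *Pdgfb* in 20.8%. T-like cells of that library, at nearly the same median depth (2086 against 2138.5 UMIs per cell), had a *Vegfa* UMI in 2.42% and a *Pdgfb* UMI in 3.81% of cells, so the NK-like shares were above those of a lymphocyte class in the same suspension. Thinned to 500 UMIs per cell, *Vegfa* was seen in 8.86% of NK-like cells (6.60 to 11.6), 0.346% of T-like cells and 0 of 56 B-like cells, and *Pdgfb* in 4.80% and 0.346% of NK- and T-like cells. Summed macrophage markers stood at 191 CPM in NK-like, 211 CPM in T-like and 14034 CPM in monocyte/macrophage-like cells of this library. The NK cell-depleted library held 1 NK-like cell, which gives no value to compare.

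Partners of the vessel factors were read from a list. Of 6 VEGF family and receptor genes with enough UMIs in monocyte/macrophage-like cells, 3 were at least 1.5-fold higher in the control library and 0 in the NK cell-depleted library, with a median log2 ratio of 0.47, beside the shares of all genes given above. *Pgf*, a ligand of VEGF receptor 1, had 266 and 120 UMIs, a ratio of 2.16 (1.73 to 2.70), and *Kdr*, which encodes VEGF receptor 2, had 165 and 85 UMIs, a ratio of 1.89 (1.45 to 2.49). *Vegfb* had 156 and 99 UMIs, a ratio of 1.54. With equal weights 2 of the 6 passed the fold, *Kdr* at 0.74 and *Flt1*, which encodes VEGF receptor 1, at 0.66 on the log2 scale, while the calls of *Pgf* (0.42) and *Vegfb* (0.21) were lost. Of the PDGF list 2 genes had enough UMIs, and *Pdgfa* (327 and 210 UMIs, 1.52-fold) was higher in the control library by the fold. With equal weights 0 of the 2 passed it, and the log2 ratio of *Pdgfa* went from 0.60 to -0.09, so that its direction turned with the mix of states. The PDGF receptors were close to absent from these cells, with 1 and 0 UMIs of *Pdgfra* and 3 and 5 of *Pdgfrb*.

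A promoter window was held for 5 of the 10 genes (*Vegfa*, *Tgfb1*, *Igf1*, *Areg* and *Il6*). The window of *Vegfa* at the start of the gene, of 300 bases on the minus strand at chr17:46032328-46032627 (RefSeq, GRCm38.p6), is shown because the states with much *Vegfa* were set beside their HIF target genes above. ACGTG, the core that HIF binds, was searched on both strands in all windows, and 19.6% of 32851 promoter windows held it.
Vegfa: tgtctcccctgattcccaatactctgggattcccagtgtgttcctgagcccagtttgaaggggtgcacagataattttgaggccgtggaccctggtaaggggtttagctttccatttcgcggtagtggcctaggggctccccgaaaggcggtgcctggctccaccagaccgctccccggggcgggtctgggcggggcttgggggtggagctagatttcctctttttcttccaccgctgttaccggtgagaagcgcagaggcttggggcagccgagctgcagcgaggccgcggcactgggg
This window held no match to ACGTG, and a second *Vegfa* window, inside the gene, held 1. A match or its absence describes these letters only.

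*Tgfb1* (chr7:25687002-25705077, plus strand) was found in all 13 states. It had 4511 and 3843 UMIs (235 and 206 CPM), with a ratio of 1.14 (1.096 to 1.19) and a UMI in 60.5% and 58.4% of cells. Equal weights left its log2 ratio at 0.12 against 0.19. Its highest state was that of *Havcr2* and *Hes1* monocyte-derived cells, at 501 CPM over both libraries, and its lowest that of *Retnla* and *Aldh1a2*, at 145 CPM. Of the 9 larger states 8 had more *Tgfb1* in the control library, but only 3 beyond counting error.

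Of 13 genes for TGF-β ligands, their activation and their receptors, 2 were at least 1.5-fold higher in the control library and 2 in the NK cell-depleted library, with a median log2 ratio of -0.09. The 2 higher in the control library were *Eng*, which encodes the coreceptor endoglin (233 and 134 UMIs, 1.69-fold, 1.36 to 2.11), and *Tgfb3* (53 and 32 UMIs, 1.61-fold). With equal weights *Tgfb3* was at -0.02 on the log2 scale. The 2 higher in the NK cell-depleted library were *Lrrc32*, which encodes the latent TGF-β anchor GARP, on 18 and 27 UMIs, and *Tgfbr3*, on 19 and 33, both with intervals that included equality. With equal weights 1 gene passed the fold in each direction, *Eng* and *Lrrc32*, and the median was -0.25. The receptor genes *Tgfbr1* and *Tgfbr2* had ratios of 1.46 and 0.766 over all cells, but log2 ratios of -0.05 and -0.15 with equal weights.

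*Igf1* (chr10:87858265-87937042, plus strand) was lower in control macrophages under both readings. It had 879 and 1168 UMIs, 45.8 and 62.5 CPM, 1.36-fold higher in the NK cell-depleted library (1.25 to 1.49), and its log2 ratio of -0.45 was -0.44 with equal weights. The *Ccl8* *Lyve1* state held 49.8% of its UMIs, at 129 CPM over both libraries, and the *Gpnmb* *Mmp13* state 27.0%. In the *Ccl8* *Lyve1* state the libraries did not differ beyond counting error (123 and 133 CPM), while in the *Gpnmb* *Mmp13* state *Igf1* stood at 80.2 and 161 CPM, 2.01-fold higher in the NK cell-depleted library (1.70 to 2.39). The share of cells with an *Igf1* UMI in that state was 16.6% and 25.5%, at median depths of 3999 and 4063.5 UMIs. Another small state, led by *Cela1* and *Ptgr1*, had 156 CPM on 23 UMIs, and the *Havcr2* *Hes1* state had 0 UMIs in both libraries.

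None of the 5 genes of the IGF list with enough UMIs passed the fold in either direction, with a median log2 ratio of 0.14. *Igf1r*, the receptor gene, had 593 and 525 UMIs (30.9 and 28.1 CPM), and *Igfbp4*, whose product binds IGF-1, had 1488 and 1035, a ratio of 1.40 (1.29 to 1.52).

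*Areg* (chr5:91139599-91148432, plus strand) had the widest log2 ratio of the 9 factors over all monocyte/macrophage-like cells, with an interval that overlapped that of *Il10*. It had 256 and 498 UMIs, 13.3 and 26.6 CPM, 2.00-fold higher in the NK cell-depleted library (1.71 to 2.33), and its log2 ratio was -0.84 (-1.07 to -0.62) with equal weights. A UMI was seen in 2.07% and 3.50% of cells, and in 1.27% and 1.94% of cells thinned to 2000 UMIs. Few cells carried the gene, and the 5 cells with most *Areg* held 34.4% and 26.9% of its UMIs. Without those 5 cells in each library the log2 ratio was -1.15. It fell below the fold, in the same direction, with cells thinned to 2000 UMIs (-0.49) and with the class called cell by cell (-0.52).

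The *Retnla* and *Slc7a2* states accounted for most *Areg* of the class. The *Retnla* *Lyz1* *Aldh1a2* state held 43.6% of it, with 84.0 and 152 CPM, 1.81-fold higher in the NK cell-depleted library (1.42 to 2.33), and the *Slc7a2* *Dcstamp* state 29.4%, with 38.0 and 75.8 CPM, 2.00-fold (1.52 to 2.63). Of the 9 larger states 7 had more *Areg* in the NK cell-depleted library, 5 of them beyond counting error, and none had more in the control library beyond it. Conventional DC-like cells had 37 and 77 UMIs, 16.6 and 30.7 CPM, 1.84-fold higher in the NK cell-depleted library (1.23 to 2.81). That class pooled clusters whose mix differed between the libraries. In its larger cluster (239 and 319 cells) *Areg* had 30 and 77 UMIs and was 1.66-fold higher (1.07 to 2.61). Its other cluster (116 and 59 cells) had 7 and 0 UMIs.

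T-like cells had the highest *Areg* level of the classes, with 157 and 185 UMIs and 242 and 325 CPM, 1.34-fold higher in the NK cell-depleted library over the whole class (1.08 to 1.67). The 5 T-like cells with most *Areg* held 34.4% and 51.9% of these UMIs, so the fold leaned on few cells. *Areg* was seen in 13.8% and 17.0% of T-like cells, against 0.369% of the control NK-like cells at like median depth. Thinned to 500 UMIs per cell, the T-like shares were 8.65% and 8.97%, on 46 and 32 UMIs in 289 and 223 cells. Thinned to 2000 UMIs, they were 15.5% and 20%, on 91 and 118 UMIs in 161 and 145 cells. At each depth the intervals of the shares overlapped between the libraries. T-like cells were then split by genes other than *Areg*, a split chosen after the data had been seen. Cells with UMIs of at least 2 of *Il1rl1*, *Il13*, *Gata3* and *Calca*, genes known from type 2 lymphocytes, numbered 58 and 51 and held 105 and 174 of the *Areg* UMIs, 760 and 1165 CPM, 1.53-fold higher in the NK cell-depleted library (1.20 to 1.97). Cells with at least 2 of the regulatory T cell genes *Foxp3*, *Ikzf2*, *Il2ra* and *Ctla4* numbered 70 and 49 and held 109 and 116 *Areg* UMIs. Both sets shared 27 and 21 cells with 65 and 106 UMIs, and the 188 and 144 cells in neither set held 8 and 1. Cells of the regulatory set alone (43 and 28) went the other way, with 44 and 10 UMIs, 407 and 132 CPM, a ratio of 0.324 (0.146 to 0.654), NK cell-depleted over control. Cells of the type 2 set alone that had no *Cd3e*, *Cd3d* or *Cd3g* UMI (21 and 25) held 19.7% and 36.2% of the *Areg* UMIs called T-like. This part was picked by the missing UMIs, which at such depth need not mean missing transcripts. Other transcripts of the T cell receptor were not looked at in it.

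*Ereg* lies 45952 bases from *Areg* on the same chromosome (chr5:91074622-91093646) but its UMIs lay mostly in other cells. Monocyte/macrophage-like cells had 8 and 9 *Ereg* UMIs and T-like cells 0, so no comparison was made. Melanoma-like cells had 9 and 34 UMIs, 60.2 and 112 CPM, a ratio of 0.539 that included equality (0.227 to 1.15). Spiked parental melanoma cells could not be told apart from cells of the host tumors among them. A difference between libraries in melanoma-like cells therefore need not be one between hosts. *Hbegf* was also found in melanoma-like cells, with 9 and 16 UMIs.

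In monocyte/macrophage-like cells *Hbegf* did not differ beyond counting error, with 241 and 219 UMIs, 12.6 and 11.7 CPM and a ratio of 1.07 (0.889 to 1.29). Over both libraries its 4 highest states lay between 17.1 and 18.9 CPM, with neighbours in this order not separable, and the state led by *Htra3* and *Spint1* was far lower, at 4.07 CPM. These sums hide opposite differences, with 22.2 and 12.04 CPM in the *Slc7a2* *Dcstamp* state and 10.8 and 23.8 CPM in the *Retnla* *Aldh1a2* state. Neutrophil-like cells differed more, with 49 and 20 UMIs, 111 and 31.9 CPM, a ratio of 3.47 (2.03 to 6.17). Among neutrophil-like cells with a UMI of *S100a8* or *S100a9*, the defining neutrophil transcripts, there were 27 and 18 UMIs and the ratio was 2.25 (1.20 to 4.35), and the 24 and 10 cells without them held 22 and 2 UMIs. The 5 cells with most *Hbegf* held 53.1% of its UMIs in the control neutrophil-like cells.

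Of 7 genes for other EGF receptor ligands, receptors and sheddases, 1 passed the fold in the control library and 0 in the NK cell-depleted library, with a median log2 ratio of 0.14. That gene, *Egf*, had 25 and 13 UMIs and an interval that included equality. With equal weights 2 passed, *Egf* and *Rhbdf1*, the latter on 29 and 22 UMIs. Receptors were few in these cells, with 4 and 7 UMIs of *Egfr* and 52 and 59 of *Erbb3*.

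*Osm* (chr11:4236420-4241026, plus strand) was higher in the control library in monocyte/macrophage-like and neutrophil-like cells. Monocyte/macrophage-like cells had 4281 and 3685 UMIs, 223 and 197 CPM, a ratio of 1.13 (1.08 to 1.18), and equal weights brought the log2 ratio from 0.18 to 0.28 (0.21 to 0.34). The share of cells with a UMI ran the other way, at 39.9% and 41.2%, but was 26.3% and 24.6% in cells thinned to 2000 UMIs. Of the 9 larger states 8 had more *Osm* in the control library, 7 of them beyond counting error. The *Ly6c2* *Vcan* monocyte state had 359 and 234 CPM, 1.54-fold (1.37 to 1.72), the state led by *Ace* and *Adgre4* had 409 and 281 CPM, 1.45-fold (1.22 to 1.72), and the *Retnla* *Aldh1a2* state had 144 and 67.6 CPM, 2.14-fold (1.66 to 2.76). The highest state over both libraries was that of *Havcr2* and *Hes1*, at 643 CPM.

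Neutrophil-like cells carried *Osm* at a higher level than any monocyte/macrophage-like state. They had 860 and 684 UMIs, 1944 and 1091 CPM, a ratio of 1.78 (1.61 to 1.97), and a UMI in 58.2% and 49.3% of cells at median depths of 1159.5 and 1300 UMIs. Thinned to 500 UMIs per cell the shares were 39.9% and 32.5%. Eosinophil-like cells had 9 and 51 UMIs, 857 and 1058 CPM, from 13 and 70 cells. Migratory DC-like cells had more *Osm* in the NK cell-depleted library, with 10 and 22 UMIs, 24.3 and 67.2 CPM, 2.76-fold (1.25 to 6.53), as had an unnamed cluster of 47 and 27 cells, with 822 and 1587 CPM. In neutrophil-like cells 4 of 5 factors with enough UMIs, *Vegfa*, *Hbegf*, *Osm* and *Il6*, were at least 1.5-fold higher in the control library, where 10.9% of all genes were, and 0 in the NK cell-depleted library, where 10.3% were. *Vegfa* there had 344 and 228 CPM, a ratio of 1.51 (1.19 to 1.91) that was on the threshold and fell to 0.29 on the log2 scale when cells were classed by their own markers.

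The *Il6* of control neutrophil-like cells came from 3 cells with 35, 25 and 2 UMIs. None of the 3 had an *S100a8* or *S100a9* UMI, and the first 2 had 14 and 10 UMIs of *Gata2* and 3 and 6 of *Ms4a2*, genes known from basophils and mast cells that were looked up after the values were seen. Neutrophil-like cells with an *S100a8* or *S100a9* UMI held 0 *Il6* UMIs in both libraries. The neutrophil-like call for *Il6* therefore rests on 3 cells that lacked the defining transcripts.

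*Il6* (chr5:30013114-30019981, plus strand) was higher in monocyte/macrophage-like cells of the NK cell-depleted library. That difference shrank when states had equal weights, and also when cells were thinned to 2000 UMIs. It had 466 and 676 UMIs, 24.3 and 36.2 CPM, 1.49-fold (1.32 to 1.68), but with equal weights the log2 ratio went from -0.57 to -0.17 (-0.34 to 0.01). A UMI was found in 3.14% and 4.29% of cells, and in 2.10% and 2.25% of cells thinned to 2000 UMIs. The thinned cells had 148 and 139 *Il6* UMIs and a log2 ratio of -0.01, with the mix of states not held equal.

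The *Retnla* *Lyz1* *Aldh1a2* state held 66.8% of the class's *Il6* UMIs from 7.02% of all its UMIs. It had 278 and 485 *Il6* UMIs, 251 and 312 CPM, 1.24-fold higher in the NK cell-depleted library (1.07 to 1.45), in 34.1% and 37.1% of cells. At 2000 UMIs per cell the shares were 22.2% and 22.7%. The next state in order, led by *Ace* and *Adgre4*, had 26.2 CPM over both libraries. The *Ccl8* *Lyve1* state went the other way, with 32 and 10 UMIs, 11.1 and 2.00 CPM. Conventional DC-like cells had 17 and 50 UMIs, 7.65 and 19.9 CPM, 2.61-fold higher in the NK cell-depleted library (1.48 to 4.82). All of these UMIs lay in the larger cluster of that class (239 and 319 cells), where the fold was 1.90 (1.08 to 3.51). The class's other cluster (116 and 59 cells) had 0 in both libraries, and its share of cells differed between them. In that class 0 of 6 factors were at least 1.5-fold higher in the control library, where 8.14% of genes were, and 2, *Areg* and *Il6*, in the NK cell-depleted library, where 7.31% were. For T-like cells the counts were 0 and 1 of 4 (*Vegfa*, on 10 and 16 UMIs, with an interval that included equality), against 11.8% and 11% of genes.

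The promoter windows of *Il6* (chr5:30012864-30013163) and *Areg* (chr5:91139349-91139648), both of 300 bases on the plus strand (RefSeq, GRCm38.p6), are shown because both genes were highest in the same macrophage state. Capitals mark matches to TGACGT, the core of the cAMP response element, or TGANTCA, the AP-1 site, on either strand.
Il6: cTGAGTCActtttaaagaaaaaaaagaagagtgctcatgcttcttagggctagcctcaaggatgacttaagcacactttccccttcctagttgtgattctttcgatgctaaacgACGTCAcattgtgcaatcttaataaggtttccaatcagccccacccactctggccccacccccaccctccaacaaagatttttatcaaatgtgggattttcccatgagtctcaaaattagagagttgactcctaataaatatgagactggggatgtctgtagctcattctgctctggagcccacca
Areg: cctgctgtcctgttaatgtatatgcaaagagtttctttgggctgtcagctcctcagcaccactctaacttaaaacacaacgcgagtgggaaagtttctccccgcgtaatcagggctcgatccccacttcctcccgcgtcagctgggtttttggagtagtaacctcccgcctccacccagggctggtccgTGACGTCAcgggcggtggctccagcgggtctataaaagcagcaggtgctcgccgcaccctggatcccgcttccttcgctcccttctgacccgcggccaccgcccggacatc
The *Il6* window had 1 match to TGACGT and 1 to TGANTCA, 136 and 249 bases before the start site. The *Areg* window had 2 matches to TGACGT, 61 and 59 bases before the start site, that overlap as both strands of 1 palindrome. Over all 32851 windows 7.51% held TGACGT and 7.81% TGANTCA. *Tgfb1* held no match to these motifs and *Igf1* 1 to TGANTCA. The *Vegfa* window inside the gene held 1 match to TGACGT, and that at the start of the gene held none to either motif. These matches describe the windows and say nothing of use in these cells.

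Among 9 genes of IL-6 family cytokines and receptors 0 passed the fold in the control library and 1, *Lif*, in the NK cell-depleted library, with a median log2 ratio of -0.28. *Lif*, a cytokine gene that lies 16530 bases from *Osm*, had 50 and 144 UMIs, a ratio of 0.338 (0.240 to 0.470), opposite in direction to *Osm*. With equal weights *Lif* kept its call, *Il27* and *Il31ra* passed the fold in the control library on 87 and 66 and on 27 and 18 UMIs, and the median was -0.08. The receptor genes *Il6ra* and *Il6st* stood at 185 and 237 CPM and at 52.8 and 64.3 CPM, and *Osmr* was nearly absent, with 1 and 3 UMIs. *Lifr* had a ratio of 0.688 (0.645 to 0.733) that was -0.04 on the log2 scale with equal weights. Of 9 genes of the STAT3 axis 0 and 1 (*Tyk2*, 0.662) passed the fold, with a median log2 ratio of -0.25, and *Stat3* itself stood at 187 and 238 CPM, a ratio of 0.785 (0.751 to 0.821). With equal weights 0 of the 9 passed the fold in either direction, *Tyk2* was at -0.40 on the log2 scale and the median was -0.03.

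*Il10* (chr1:131019845-131024974, plus strand) was 1.90-fold higher in monocyte/macrophage-like cells of the NK cell-depleted library (1.70 to 2.13). It had 478 and 886 UMIs, 24.9 and 47.4 CPM, with a UMI in 4.24% and 6.59% of cells, and in 2.23% and 3.89% of cells thinned to 2000 UMIs. With equal weights the log2 ratio went from -0.93 to -0.56 (-0.72 to -0.39), below the fold but in the same direction. The 5 cells with most *Il10* held 25.5% and 21.9% of its UMIs.

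The *Ccl8* *Lyve1* state held 68.2% of *Il10* UMIs, with 97.3 and 130 CPM, 1.34-fold higher in the NK cell-depleted library (1.16 to 1.54), and a UMI in 15.8% and 19.8% of cells at median depths of 6230 and 7150 UMIs. At 2000 UMIs per cell these shares were 7.08% and 11.3%. The *Pf4* *Itga9* state had 29.5 and 61.6 CPM, 2.08-fold (1.61 to 2.70). In the *Ly6c2* *Vcan* monocyte state *Il10* had 2 control UMIs against 33 after NK cell depletion, while the shallow *Cd177* *Vcan* state had 13 and 1. None was found in NK-like cells, where 0 of 542 cells had a UMI. The receptor chains *Il10ra* and *Il10rb* stood at 129 and 138 CPM and at 129 and 160 CPM. Of 3 genes of the IL-10 list 1 and 0 passed the fold, and that gene, *Il20rb*, had 16 and 10 UMIs.

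**Figure D4:**
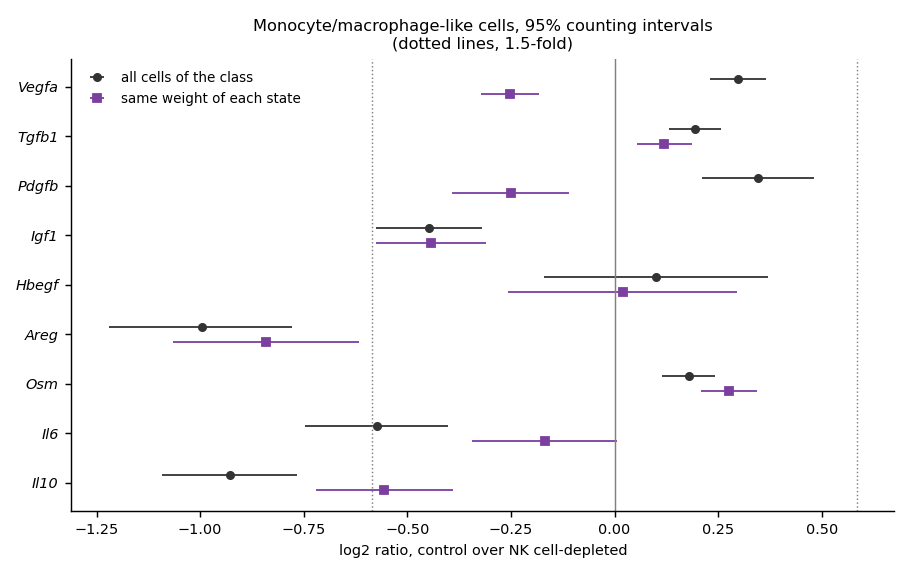
Log2 ratio, control over NK cell-depleted, of 9 factors in monocyte/macrophage-like cells, over all cells of the class (circles) and with the same weight of each of 11 states in both libraries (squares). Bars are 95% counting intervals and dotted lines mark 1.5-fold. *Vegfa* and *Pdgfb* move from above 0 (0.30 and 0.35) to below 0 (-0.25 for both), *Il6* moves from -0.57 to -0.17, and *Igf1* and *Osm* keep their direction.

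Several factors met in the same cells. Monocyte/macrophage-like cells had UMIs of a median of 2 of the 10 factors, and 8.67% and 8.04% of them had 4 or more. In the *Slc7a2* *Dcstamp* state, whose cells were deep (medians of 8627.5 and 8723 UMIs), 23.1% and 25.1% had 4 or more, and in the *Pf4* *Itga9* state 18.6% and 24.0%. Over the 23 clusters compared, the levels of *Igf1* and *Il10* had a Pearson r of 0.73, *Vegfa* and *Osm* 0.66, and *Tgfb1* and *Pdgfb* 0.54. *Vegfa* and *Il10* had -0.30. These values describe clusters that share libraries and differ in depth.

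Of 5868 genes compared over the same clusters, those most like *Igf1* were *Cbr2*, *Ms4a7* and *Gas6* (r of 0.92, 0.90 and 0.90), and *Il10* was most like *Ednrb* (0.77) and *Ccl12* (0.76). *Osm* was most like *Tnrc18* (0.91) and *Ccr1* (0.89), *Tgfb1* like *Med15* (0.88), *Vegfa* like *Blcap* (0.84), *Hbegf* like *Csf1* (0.83), *Pdgfb* like *Ndufs5* (0.78) and *Il6* like *Bcl10* (0.73). *Areg* had no close match, with *Tmem64* first at 0.61.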

How the data were processed

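For each library the authors deposited UMI counts per gene and cell, aligned to mm10 per the labels, with Cell Ranger 3.0.2 named in the file headers and another release in the methods. The deposited counts were kept for cells of 500 to 15000 UMIs and 200 to 4000 genes in which mitochondrial transcripts made up no more than 10% (9798 of 11651). Groups came from the sample titles. Cells were clustered on log2(CPM + 1) of 2000 variable genes (15 components, 20 neighbors, Leiden resolution 1; scanpy 1.11.5, leidenalg 0.10.2) without 152 genes that included the factors, their partner and the context lists. A cluster was named from marker lists, either by at least 3 markers among 50 leading genes or, for macrophage states, by at least 10 markers 1.5-fold above other classes. Scrublet called 3 cells, so it had not worked and no doublets were removed. UMIs were summed per class and library. Sums carry exact Poisson, ratios exact conditional binomial and shares Clopper-Pearson 95% intervals, which cover counting error only, and log2 ratios had 0.5 UMI added. A count of 0 allows 3 counts. A gene was called at 1.5-fold with at least 20 UMIs over both libraries, and with equal weights over the 11 states that held at least 30 cells per library. Scripts were tested on simulated data. Named genes were the 10 factors, receptors and up to 4 genes of largest fold from each partner list, and the genes most like each factor over clusters of at least 50 cells by Pearson r of log2(CPM + 5). The members, lists and tests were chosen with earlier results of these data known.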

Additional observations from a re-analysis of the deposited data

Results flagged for a closer look

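For 3 factors the direction between the libraries was opposite in 2 macrophage states, each beyond counting error, and the difference between states was not tested. The log2 ratio of *Hbegf*, control over NK cell-depleted, was 0.86 in the *Slc7a2* *Dcstamp* state (56 and 20 UMIs) and -1.10 in the *Retnla* *Aldh1a2* state (12 and 37 UMIs). That of *Il6* was 2.42 in the *Ccl8* *Lyve1* state and -0.63 in the *Slc7a2* *Dcstamp* state (50 and 51 UMIs). That of *Il10* was 3.23 in the *Cd177* *Vcan* state, on 13 and 1 UMIs, and -2.57 in the *Ly6c2* *Vcan* state, on 2 and 33 UMIs.

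Cells too deep for the filter, with over 15000 UMIs or 4000 genes (212 and 353), were left out of the report's comparisons and entered only the alternative with no upper limits. In them 5 factors stood beyond counting error above the control level, and *Tgfb1* (559 and 607 UMIs) stood below it, at 0.667-fold (0.594 to 0.750). Of these cells 116 and 243 were melanoma-like and 81 and 105 monocyte/macrophage-like. There *Hbegf* (519 and 994 UMIs) was 1.18-fold, *Areg* (226 and 494 UMIs) 1.34-fold and *Ereg* (263 and 600 UMIs) 1.40-fold higher in the NK cell-depleted library. *Il6* (80 and 254 UMIs) was 1.95-fold and *Il10* (9 and 49 UMIs) 3.34-fold higher. These folds pool classes whose mix differed between the libraries: within the melanoma-like cells *Hbegf* was at 1.03-fold (0.925 to 1.15), *Areg* at 0.987-fold (0.807 to 1.21) and *Ereg* at 1.23-fold (1.06 to 1.42). The melanoma-like cells among them held 259 and 580 of the *Ereg* UMIs and 507 and 955 of the *Hbegf* UMIs, and the monocyte/macrophage-like cells 74 and 246 of the *Il6* UMIs. Within these monocyte/macrophage-like cells *Areg* was 2.26-fold (1.73 to 2.98), *Hbegf* 2.48-fold (1.27 to 5.21), *Il6* 2.54-fold and *Il10* 5.13-fold higher in the NK cell-depleted library. *Osm* there was 1.44-fold higher in that library (1.18 to 1.76), opposite to its direction in the filtered cells. *Vegfa* and *Tgfb1* were lower, at 0.724-fold and 0.777-fold. Here too spiked parental cells could not be told apart among the melanoma-like cells.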

How the results depend on the processing

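Each log2 ratio in monocyte/macrophage-like cells was recomputed under 13 alternatives. The count of factors at least 1.5-fold higher in the NK cell-depleted library, 2, was 4 with no upper limits on UMIs and genes, 3 with at least 1000 UMIs and at most 5% mitochondrial UMIs or at clustering resolution 2, and 1 with the same weight of each state, with cells thinned to 2000 UMIs, with the mean over cells of each cell's CPM and with the class called cell by cell. Under these alternatives 3.49% to 4.55% of all genes were higher in the NK cell-depleted library by the fold, and with no upper limits 10 factors were tested. The count higher in the control library, 0, was 1 (*Tgfb1*) when the level in B-like cells was subtracted. With that subtraction 24.4% of all genes were higher in the control library and 22.1% in the NK cell-depleted library, so 1 of 9 was no excess. The cause of these changes was not tested. Of 130 single values 105 moved within counting error and 25 beyond it, and no ratio of *Areg* or *Il10* changed direction. *Vegfa* (-0.25 to 0.51) and *Pdgfb* (-0.25 to 0.45) changed direction only with equal weights, and *Hbegf* (-0.03) with no upper limits. *Ereg*, on 8 and 9 UMIs, ranged from -1.24 to 0.75 and changed direction under 4 alternatives. *Areg* ranged from -1.15 to -0.49 and *Il10* from -1.57 to -0.56, each past the fold in 11 of 13. *Il6* ranged from -0.77 to -0.01, *Igf1* from -0.52 to -0.16, *Osm* from 0.08 to 0.54 and *Tgfb1* from 0.12 to 0.72. The alternative without the *Retnla* *Aldh1a2* state and the 6 for neutrophil-like cells were chosen after seeing the data. Those 6 gave log2 ratios of 0.64 to 0.88 for *Osm*, 1.16 to 3.37 for *Hbegf* and 0.29 to 0.87 for *Vegfa*. No paired analysis was possible because each group was 1 library. *Ereg*, at 17 and 43 UMIs in the kept cells against 263 and 600 in the cells above the upper limits, and the small states allowed no close reading.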
